A study of Mus musculus with 4 samples.

Results

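The microRNA (miRNA) families described here are the miR-19 family, mmu-miR-19a and mmu-miR-19b, and the miR-130/miR-301 family, mmu-miR-130a, mmu-miR-130b, mmu-miR-301a and mmu-miR-301b. The members are the 6 probes, of 1030 on the array that name a mouse miRNA, whose names hold exactly one of these miRNAs. They were selected on earlier results of the same arrays, in which they were lower after longer culture, so their differences from Day 2 are given as a description and without a test. The cultures were primary cortical neurons from embryos of untreated Swiss Albino mice at gestation day 15, and were kept for 2, 4, 6 or 8 days. For each day, total RNA of 4 separate experiments was pooled and hybridised to 1 array after labelling with the single dye Hy3, and no array measures how much separate cultures differ. The capture probes carry locked nucleic acids (LNA), which raise the affinity of a short probe for its miRNA. Each day lies on a slide of its own and the slides were scanned in the order of the days, so that day, slide and scan cannot be told apart. In such bulk RNA, fewer cells of a type and less RNA per cell cannot be told apart either.

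A miRNA guides the Argonaute protein to messenger RNAs through its seed, the stretch near its 5′ end that pairs with the target, and miRNAs with the same seed are grouped as a family. The miR-19 miRNAs are made from the miR-17-92 cluster and a related cluster, which are known for keeping progenitor cells dividing. The miR-130/miR-301 family has a seed that is shifted by a base against that of miR-19, and miR-130 is known to repress Pparg, the nuclear receptor of fat cell formation.

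The mature sequences are shown because the shared seed, in capitals (bases 2 to 8 from the 5′ end), is what makes each set of miRNAs a family. Sequences were found for 5 of the 6 members and are those of RefSeq on GRCm38.p6.
mmu-miR-19a-3p: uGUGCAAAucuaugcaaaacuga
mmu-miR-19b-3p: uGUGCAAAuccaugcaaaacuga
mmu-miR-130a-3p: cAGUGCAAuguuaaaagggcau
mmu-miR-130b-3p: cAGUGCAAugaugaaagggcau
mmu-miR-301a-3p: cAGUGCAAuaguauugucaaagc

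The miR-19 seed, GUGCAAA, is held by 2 of 1679 mature mouse miRNAs in RefSeq (0.119%), which are miR-19a and miR-19b. The miR-130/miR-301 seed, AGUGCAA, is held by 7 (0.417%), and the 6 bases common to both seeds, GUGCAA, lie within bases 2 to 8 of 9 (0.536%). Neither count includes miR-301b, the member without a sequence here. Counted from the 5′ end, miR-19a and miR-19b differ by the single substitution U11C, and miR-130a and miR-130b by U11A and A13G. The sequence of miR-301a shares its first 9 bases with that of miR-130a and 12 of the 22 positions compared. The 5 sequences have a GC content of 34.8% to 45.5%, below the median of 52.2% over all mature sequences. A cross-signal between probes whose targets differ by a single base was not tested.

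The members come from several places in the genome. On GRCm38.p6, miR-19a lies at chr14:115044048-115044070 and miR-19b at chr14:115044358-115044380, both on the plus strand, with the miRNA genes Mir17, Mir18, Mir20a and Mir92-1 within 10 kb. The same miR-19b is also made from the minus strand at chrX:52741991-52742013, within 10 kb of Mir363, Mir92-2, Mir20b, Mir18b and Mir106a, and the probe cannot tell its origins apart. The miR-130b sequence lies at chr16:17124071-17124092 on the minus strand, and its only miRNA neighbour within 10 kb is Mir301b, the gene of miR-301b. Both overlap the gene 2610318N02Rik. In contrast, miR-130a at chr2:84741116-84741137 (minus strand) and miR-301a at chr11:87113054-87113076 (plus strand) have no other miRNA gene within 10 kb, and the gene of miR-301a overlaps Ska2, which codes for a spindle and kinetochore protein.

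Of the 1030 mouse miRNAs, 419 were detected, which means a background-subtracted signal of at least 300, averaged over spots, on at least 1 array. The arrays detected 339 to 401 of them, with a mean signal of 1275 on Day 6, the lowest, to 1653 on Day 4, and no negative control exceeded 139. The neuronal miR-124 was saturated on every array, with at least 88.5% of its pixels at the limit, and the 4 neuronal markers were all detected. In contrast, miR-143 (29.5 at most) and miR-223 (28.0 at most), which the study used as signs of glial cells, stayed below 300 on all arrays.

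All 6 members were at 300 or more on all 4 arrays, each with 4 spots and with no saturated pixels. The signal of mmu-miR-19a was 5366, 4731, 2244 and 2239 on Days 2, 4, 6 and 8. Days 2 and 4 were high and Days 6 and 8 low, and the spots of the 2 late days, 2155 to 2298, lay far below the lowest Day 2 spot, 5140. For mmu-miR-19b, the signal was 15356, 15213, 7465 and 8846 on Days 2, 4, 6 and 8. Its early days again stood above its late days, with spots of at least 14491 against 9410 at most, but without normalization Day 6 and not Day 8 was its lowest. Since the Day 6 array had the lowest mean signal over all miRNAs, the values were also compared after quantile normalization, as signal log ratios (SLRs). An SLR is the normalized log2 signal of a day minus that of Day 2. Each ± combines the SDs between spots of both days compared, as the square root of their summed squares, without pairing spots by position. This combined value is the SD or spread between spots named with SLRs and steps below. It covers technical error within arrays only.

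After quantile normalization both miR-19 members were ordered Day 2, 4, 6 and 8 from high to low, with no overlap of spots between neighbouring days, but Day 8 lay above Day 6 for both under scaling by the spike-in controls. The SLR of miR-19a was -0.28 ± 0.06, -0.89 ± 0.06 and -1.36 ± 0.06 on Days 4, 6 and 8, a 2.56-fold lower level on Day 8 and the 8th lowest SLR of 419. The SLR of miR-19b was -0.20 ± 0.09, -0.56 ± 0.08 and -0.79 ± 0.10 on these days, a 1.73-fold lower level on Day 8 and the 24th lowest. Thus miR-19a was further below Day 2 than miR-19b on Days 6 and 8, by more than the spread between spots. The Day 4 direction of both held under quantile normalization but turned when the arrays were scaled by endogenous small RNAs, to 0.22 for miR-19a and 0.41 for miR-19b. It was below 0 under 12 of 14 alternatives for miR-19a and under 11 for miR-19b.

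**Figure D1:**
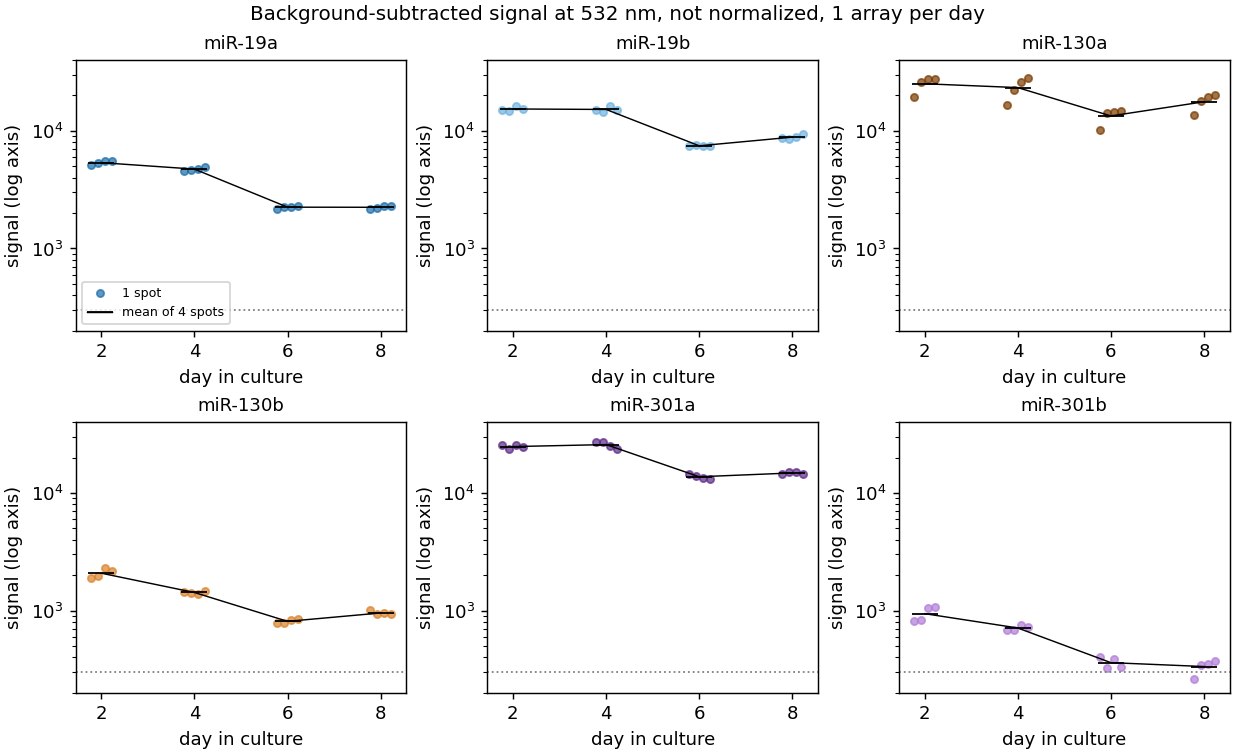
Background-subtracted signal (log axis) of each member at Days 2, 4, 6 and 8 of culture, not normalized, with points for the 4 spots, bars for their mean and a dotted line at the detection threshold of 300. All 6 members had a lower mean signal on Days 6 and 8 than on Days 2 and 4, and miR-301b, with 334 on Day 8, lay just above the threshold.

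In the miR-130/miR-301 family, the pair with neighbouring genes was further below Day 2 than the other pair. This pair was also the dimmer, with Day 2 signals of 2078 and 941 against 25165 for miR-130a and 24794 for miR-301a. Gene location and signal level therefore cannot be told apart here. The signal of mmu-miR-130b was 2078, 1424, 809 and 954 on Days 2, 4, 6 and 8. Its highest spot after Day 2 was 1462 and its lowest on Day 2 was 1890, so no later day reached Day 2. The SLR of miR-130b was -0.62 ± 0.13, -0.88 ± 0.14 and -1.10 ± 0.13 on Days 4, 6 and 8, a 2.15-fold lower level on Day 8 and the 14th lowest SLR. For mmu-miR-301b, the signal was 941, 711, 360 and 334 on these days. Its Day 2 spots, at least 814, lay above those of the other days, and on Day 8 its lowest spot, 260, lay under the detection threshold. Its SLR was -0.51 ± 0.20, -0.83 ± 0.22 and -1.27 ± 0.25, a 2.41-fold lower level on Day 8 and the 9th lowest SLR of 419. Both were lower than Day 2 on Day 4 under each of the 14 alternatives that could change a value, including scaling by endogenous small RNAs.

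The members with genes of their own, miR-130a and miR-301a, differed less from Day 2. The signal of mmu-miR-130a was 25165, 23343, 13396 and 17684 on Days 2, 4, 6 and 8, and its spots were wide apart on each array, from 19438 to 27719 on Day 2 and from 13552 to 19999 on Day 8. Its SLR was -0.20 ± 0.49, -0.36 ± 0.38 and -0.43 ± 0.39 on Days 4, 6 and 8, and the spots of each later day overlapped those of Day 2. This spread includes differences between spot positions, and a comparison by position is given below. The Day 4 value of miR-130a turned to 0.31 under scaling by endogenous small RNAs. For mmu-miR-301a, the signal was 24794, 25789, 13732 and 14798 on these days. Both early days were high, with 23590 as the lowest spot, and both late days low, with 15031 as the highest. The SLR of miR-301a was 0.11 ± 0.16 on Day 4, with spots that overlapped those of Day 2, and it was below 0 under 3 of the 14 alternatives. It was -0.24 ± 0.10 on Day 6 and -0.53 ± 0.05 on Day 8, a 1.45-fold lower level on Day 8 with no overlap of spots.

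The dimmest miR-130a spot lay at the same position on all 4 arrays, a feature looked at after the values were seen. When each spot was compared with the spot at its own position on Day 2, miR-130a was lower in 3 of 4 positions on Day 4 and in 4 of 4 on Days 6 and 8. The mean of these differences was -0.20, -0.36 and -0.43, with an SD of 0.17, 0.07 and 0.05. By position, Days 6 and 8 thus lay below Day 2 by more than the spread after quantile normalization. The SLR of miR-130a on these days was -0.10 and -0.07 under scaling by the endogenous small RNAs. Under scaling by the spike-in controls it was -1.11 and -0.56. Positions were not compared under those scalings. For miR-301a, 2 of 4 positions were lower on Day 4 and 4 of 4 on the later days. The other members were lower at all 4 positions on each day.

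Counts over the members were read beside the same counts over all 419 detected miRNAs, since an SLR below -0.6, the size used in the study, was also reached by others. On Day 4, 1 of 6 members, miR-130b, was below -0.6, against 1.91% of all detected miRNAs, and every spot was below every Day 2 spot in 4 of 6, against 22.9%. On Day 6, 3 members (miR-19a, miR-130b and miR-301b) were below -0.6, against 4.53%, and the spots of 5 were all lower, against 23.4%. On Day 8, 4 members (those and miR-19b) were below -0.6, against 11.2%, and the spots of 5 were all lower, against 35.3%. These counts are after quantile normalization, whereas the study scaled its miRNA arrays by endogenous controls. When scaled by the median of 15 endogenous small RNAs, 0, 1 and 3 members were below -0.6 on Days 4, 6 and 8. The shares of all detected miRNAs were then 0.716%, 3.34% and 5.73%. The members were chosen by this contrast, so nothing is read from these shares. After quantile normalization, the median SLR of the 6 members was -0.24, -0.69 and -0.95 on Days 4, 6 and 8. That of all detected miRNAs was -0.01, -0.01 and -0.03. The miR-19 median was -0.24, -0.72 and -1.08, and the miR-130/miR-301 median was -0.36, -0.60 and -0.82.

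**Figure D2:**
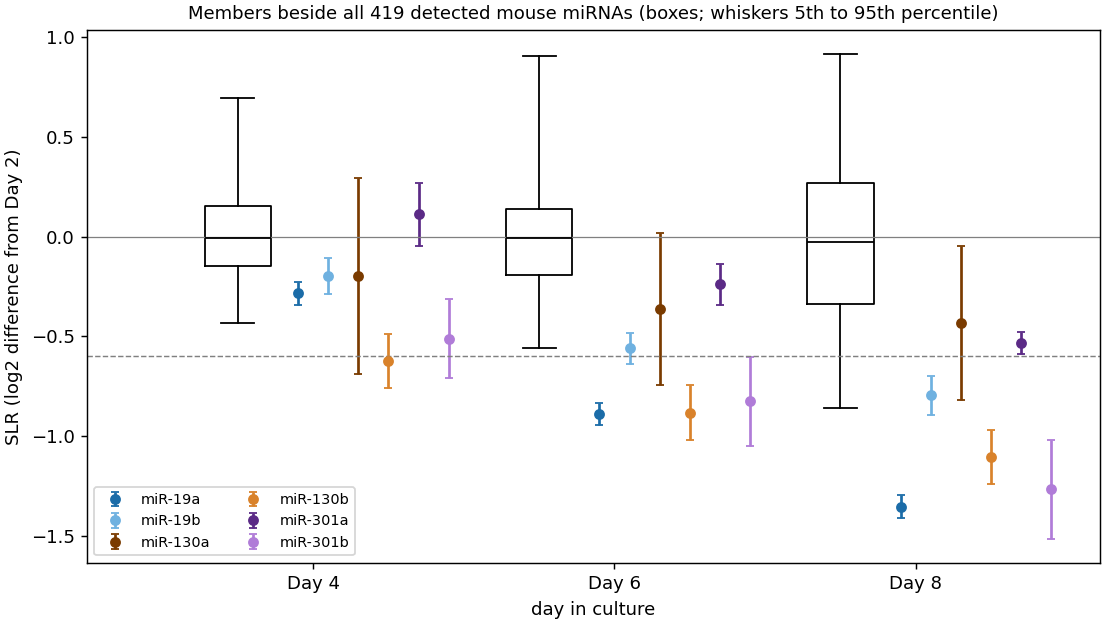
SLR (log2 difference from Day 2) of each member on Days 4, 6 and 8, with bars for the SD between spots and a dashed line at -0.6, beside boxes for all 419 detected mouse miRNAs (quartiles, whiskers from the 5th to the 95th percentile). On Day 8 the members run from -1.36 for miR-19a to -0.43 for miR-130a, around an overall median of -0.03.

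Steps between neighbouring days were compared after quantile normalization, and their order depended on the scaling. From Day 2 to Day 4, miR-130b had its largest step (-0.62 ± 0.13), as under 12 of the 14 alternatives. The steps of miR-301b from Day 2 to Day 4 (-0.51 ± 0.20) and from Day 6 to Day 8 (-0.44 ± 0.20) differed by less than the spread between spots. Without normalization, both had their largest step from Day 4 to Day 6, from -0.61 to -1.39 for miR-130b and from -0.55 to -1.44 for miR-301b, and so they did under scaling by the median of the endogenous small RNAs. For miR-19a (-0.60 ± 0.04), miR-19b (-0.36 ± 0.07) and miR-301a (-0.35 ± 0.18), the largest step was from Day 4 to Day 6, as under all 14 alternatives. For miR-301a, this step and that from Day 6 to Day 8 (-0.29 ± 0.10) differed by less than the spread between spots. The largest step of miR-130a was from Day 2 to Day 4 under 6 alternatives and from Day 4 to Day 6 under 8. Every spot was lower on Day 6 than on Day 4 in 5 of 6 members, against 14.8% of all detected miRNAs, and the mean of each member was lower under all 14 alternatives.

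From Day 6 to Day 8, the direction was that of quantile normalization and turned under other scalings. With quantile normalization the step was -0.47 ± 0.04 for miR-19a, -0.44 ± 0.20 for miR-301b, -0.29 ± 0.10 for miR-301a, -0.23 ± 0.08 for miR-19b and -0.22 ± 0.06 for miR-130b. Every spot was then lower on Day 8 than on Day 6 in 5 of 6 members, against 34.1% of all detected miRNAs, but all 6 members were higher on Day 8 than on Day 6 under both spike-in scalings, by 0.07 to 0.55 with the median of the controls. Without normalization, 4 members were higher on Day 8 than on Day 6. All 6 were lower on Day 8 than on Day 6 under 7 of the 14 alternatives. The member left out of both counts of spots was miR-130a, whose spots on neighbouring days overlapped in each step. The steps share arrays and are not separate evidence.

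The other strand of the same hairpins gave little signal. The array holds 7 probes for the opposite (star) strands of the members' hairpins, and none was detected, with signals of -11.8 to 293. The highest was miR-130b*, with 290, 258, 209 and 293 on Days 2, 4, 6 and 8. Its Day 8 signal lay within the spots of Day 2, and no fold is given below the threshold.

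A separate capture probe, named for the human miR-301b only, followed the mouse probe. Its signal was 701, 536, 258 and 241 on Days 2, 4, 6 and 8, with SLRs of -0.47 ± 0.10, -0.83 ± 0.16 and -1.21 ± 0.11. As it was under 300 on the last 2 of these days, it is given as at least 1.52-fold lower on Day 6 and at least 1.97-fold lower on Day 8. Such a bound divides the normalized Day 2 level by that of the dimmest probe whose spots all reached 300 on the later array, or by the probe's own level where this was higher. Whether both probes capture the same molecules was not tested.

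Among other mouse miRNAs with either seed, miR-721 was the only one with a probe of its name. Its sequence is shown because it holds the miR-130/miR-301 seed while its signal was not lower on Day 8.
mmu-miR-721: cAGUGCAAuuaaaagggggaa
The signal of miR-721 was 215, 183, 175 and 320 on Days 2, 4, 6 and 8, so that it passed 300 on Day 8 alone. As it was under 300 on Day 2 and no bound on a rise could be set, no rise is stated. Its SLR on Day 8 was 0.30 ± 0.14, with the Day 8 spots above all Day 2 spots, and it was below 0 under 4 of the 14 alternatives, as low as -0.32 under scaling by the spike-in controls. Its first 9 bases are those of miR-130a.

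The miRNAs that share a primary transcript with miR-19 were given from a list of the miR-17-92 cluster and its related cluster on the X chromosome. Of these, 12 had a probe and 7 were detected. After quantile normalization, 6 of the 7 were below -0.6 on Day 8, against 11.2% of all detected miRNAs. Under scaling by the median of the endogenous small RNAs, miR-17* was at -0.30 and no longer below -0.6. The others, miR-20a, miR-17, miR-106a, miR-20b and miR-20a*, stayed below -0.6. The share of all detected miRNAs was then 5.73%. The signal of miR-20a was 3392, 2370, 1172 and 1186 on Days 2, 4, 6 and 8, and its SLR on Day 8 was -1.54 ± 0.08. For miR-17, the signal was 2939, 2119, 1003 and 1057, and the SLR on Day 8 was -1.46 ± 0.36. Both values lay below that of miR-19a, for miR-17 by less than the spread between spots. For miR-106a, from the X chromosome, the signal was 5207, 4308, 2165 and 2159 and the SLR on Day 8 was -1.37 ± 0.22. The probe of miR-20b, also from the X chromosome, went from 810 on Day 2 to 276 on Day 8, at least 2.23-fold lower. Thus miR-20a and miR-17 of the miR-17-92 cluster and miR-106a and miR-20b of the X chromosome were lower. Several of them carry the miR-17 seed, not that of miR-19. A cross-signal between the probes of the related clusters was not tested.

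The star strands of these clusters differed among themselves. The signal of miR-17* was 1766, 1579, 932 and 1126, with an SLR of -0.67 ± 0.04 on Day 8, and miR-20a* went from 472 on Day 2 to 197 on Day 8, at least 1.45-fold lower. In contrast, miR-92a-2*, from the gene Mir92-2 in the cluster on the X chromosome, was not lower on Day 8 after quantile normalization. Its signal was 357, 385, 267 and 475, with an SLR of 0.22 ± 0.08 on Day 8. The sign of this SLR depended on the scaling. It was 0.27 under scaling by the endogenous small RNAs, -0.22 under scaling by the spike-in controls and -0.18 without normalization. The 5 listed probes that were not detected (miR-18a, miR-18a*, miR-92a, miR-92a-1* and miR-18b) gave signals of -21.7 to 75.7, below the highest negative control.

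**Figure D3:**
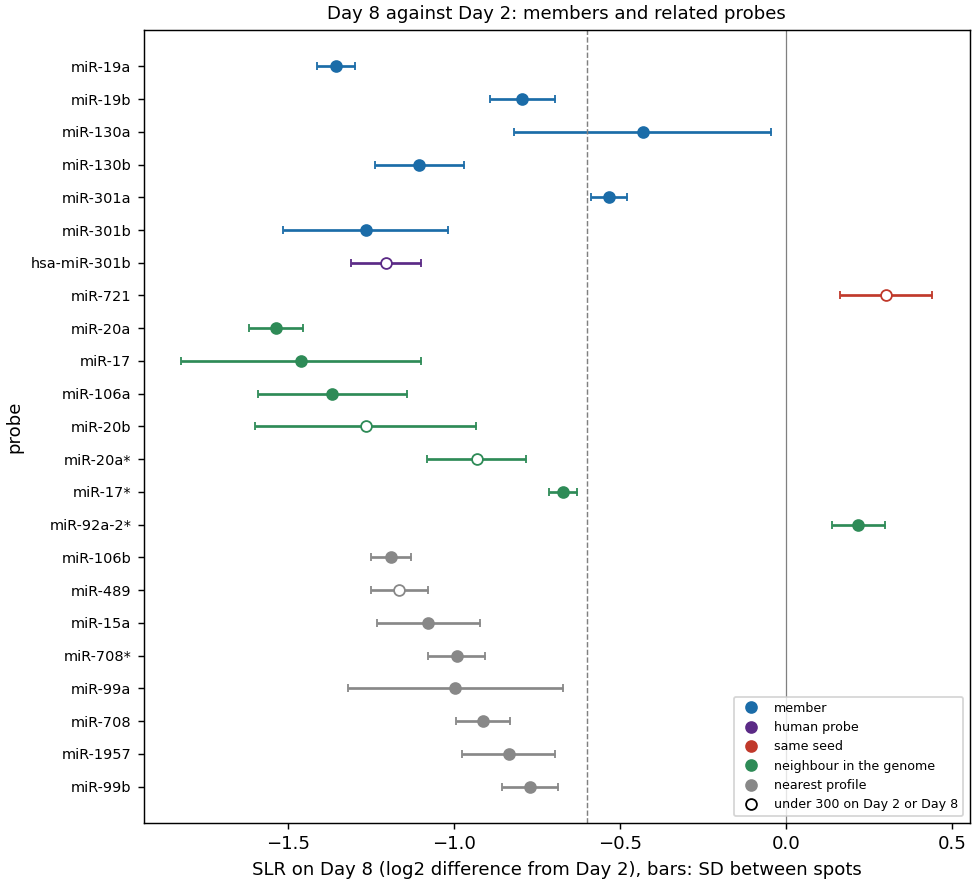
SLR on Day 8 (log2 difference from Day 2) of the members, the human miR-301b probe, miR-721, the detected miRNAs of the miR-17-92 and related clusters and the miRNAs with the nearest profiles, with bars for the SD between spots, a dashed line at -0.6 and open circles for probes under 300 on Day 2 or Day 8. After quantile normalization, only miR-721 (0.30) and miR-92a-2* (0.22) lie above 0.

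The detected mouse miRNAs with the nearest profiles were found by the Euclidean distance between their 3 SLRs and the mean SLRs of each family, over 4 arrays. For miR-19, these were miR-708* (distance 0.15), miR-15a (0.16), miR-20a* (0.17), miR-106b (0.18) and miR-489 (0.19). For miR-130/miR-301, these were miR-1957 (0.09), miR-708 (0.11), miR-20a* (0.13), miR-99b (0.14) and miR-99a (0.19). Both strands of the miR-708 hairpin and the star strand of miR-20a thus appear among them. The signal of miR-708 was 9450, 8539, 4855 and 5615 on Days 2, 4, 6 and 8, with an SLR of -0.91 ± 0.08 on Day 8. For miR-15a, the signal was 10419, 8974, 4965 and 5495, with an SLR of -1.08 ± 0.15. With 3 values per profile that share Day 2, the likeness is a description only.

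Summed signals of markers of other cell types were lower on Day 8 than on Day 2 in some lists. These sums are not normalized and include probes that were not detected. On Day 8, the first 2 sums below lay under 300, the threshold for a single probe. The summed signal of 5 microglia and leukocyte miRNAs, of which miR-142-3p was the only one detected, was 552 on Day 2 and 213 on Day 8, and that of 4 endothelium and blood miRNAs, of which miR-451 was the only one detected, was 943 and 275. The astrocyte and mesenchymal list, with miR-21 detected of 3, was at 376 and 320, and the 2 oligodendrocyte miRNAs, both detected, at 1417 and 1583. The part of other cell types in the members' levels was not tested. The 4 neuronal markers summed to 134466 on Day 2 and 142119 on Day 8, with miR-124 at the scanner's limit.

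The choice of scaling moved the size of the differences on all days and their direction on Day 4. All 6 members were below Day 2 on Days 6 and 8 under quantile normalization and under each of the 14 alternatives that could change a value. On Day 4, 5 members were below Day 2 under quantile normalization, 2 under scaling by 15 endogenous small RNAs and 6 under scaling by 33 spike-in controls. These scalings also moved all other miRNAs, to a median of 0.35 and -0.57. Each of these scalings shifts a whole array by a constant, so distances from the median of all detected miRNAs are the same under both by construction. Measured from that median, the members' median was -0.08, -0.52 and -0.74 on Days 4, 6 and 8. Under quantile normalization it was -0.23, -0.69 and -0.92. Over the 14 alternatives, the Day 8 SLR ran from -1.57 to -0.83 for miR-19a, from -0.87 to -0.36 for miR-19b and from -0.56 to -0.07 for miR-130a. It ran from -1.24 to -0.72 for miR-130b, from -0.79 to -0.30 for miR-301a and from -1.62 to -1.08 for miR-301b. The high end of each range came from scaling by endogenous small RNAs.

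**Figure D4:**
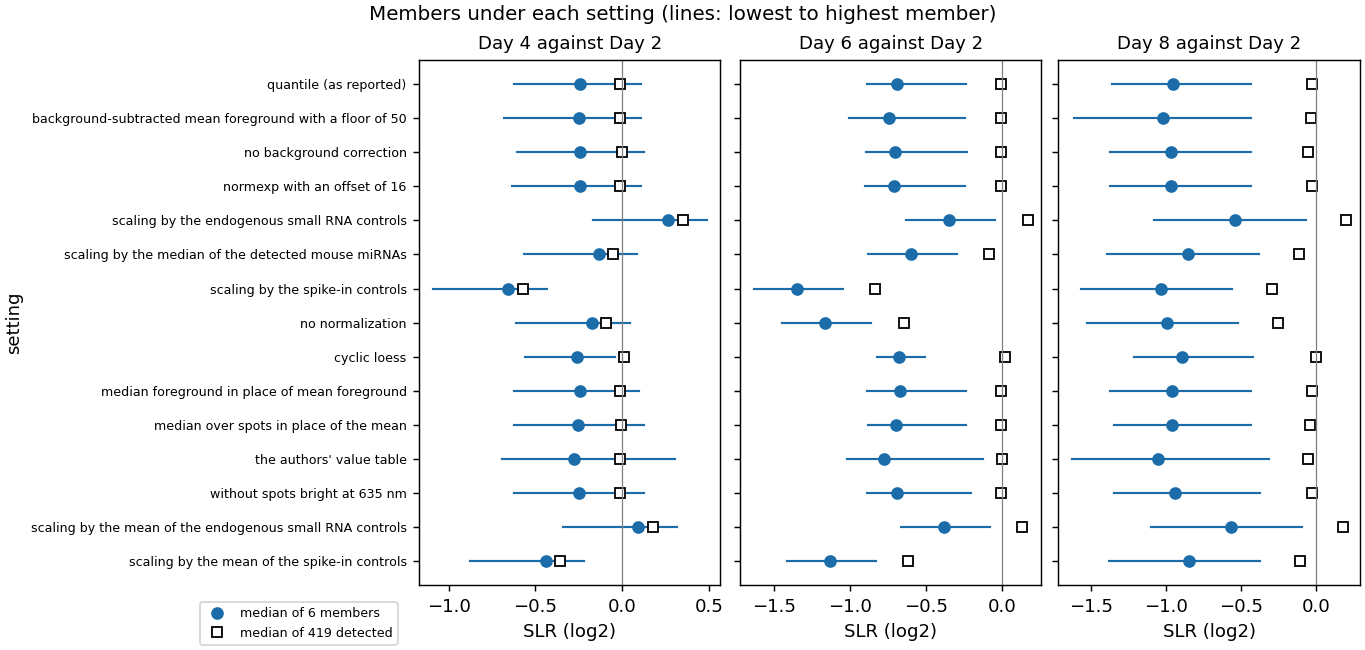
Median SLR of the 6 members (filled circles, with lines from the lowest to the highest member) and of all 419 detected mouse miRNAs (open squares) on Days 4, 6 and 8, on a log2 scale, under quantile normalization and each alternative. On Days 6 and 8 the members lie left of 0 and of the overall median in each row, while on Day 4 their median lies right of 0 under both scalings by endogenous small RNAs.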

How the data were processed

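Total RNA of maturing neurons was measured on 1 one-colour LNA array per day (Days 2, 4, 6 and 8). The authors' scanner files, made with Mapix 4.5.0 per the file headers, give for 12312 spots the foreground and background intensity, the percent of saturated pixels and a spot flag. They were not normalized between arrays. The deposited value table gives linear intensity, equal to the mean over spots of the median foreground minus background, with column medians of 73.2, 82.4, 65.8 and 81.1.

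The mean foreground was background-corrected by limma 3.58.1 (R 4.3.3; normexp, offset 50), quantile-normalized on the log2 scale over miRNA spots and averaged over spots. Detection (300) and the SLR size (0.6) are those of the study's methods. For miRNAs, however, the study scaled each array by endogenous controls. Here the reported SLRs use quantile normalization, and scaling by endogenous small RNAs is given as an alternative. The members and lists were chosen with earlier results of these data known, so no test was made. Named beside the members were detected opposite strands, same-seed miRNAs and cluster neighbours, the 5 nearest profiles per family and label-check miRNAs. The processing was tested on simulated data with planted rises and falls of the same sizes. As only quantile normalization was run on them, these data cannot decide between scalings. Alternatives concerned background, scaling, dim-probe filters, spot summaries, the value table and spots bright in the unused red channel. The listed miR-363 was not matched by name and was not analysed here.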

Additional observations from a re-analysis of the deposited data

Results flagged for a closer look

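A second wavelength, red, was recorded although no dye was used there. The red signal of miR-130a was 47.9, 42.0, 21.0 and 24.8 on Days 2, 4, 6 and 8, above the highest negative control probe on each array (5.93, 6.06, 8.58 and 5.92), and it was the highest red signal among the members. The Hy3 control spots gave 239 to 282 in red beside 61403 to 61783 in the Hy3 channel. The SLRs of miR-130a do not use this signal.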

How the results depend on the processing

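No pairing of cultures was possible because there was 1 array of pooled RNA per day, and only spots were paired, by position. All 6 members were below Day 2 on Days 6 and 8 under each of the 16 alternatives, the 2 filters on dim probes changed no value, and of 252 alternative values of single members 166 were within 1 SD between spots. On Day 4, 10 of 84 values of 4 members (miR-19a, miR-19b, miR-130a and miR-301a) changed sign, none of them beyond 0.6 as reported, and on Days 6 and 8 none of 84 did. The order of Days 6 and 8 turned for all 6 members under both spike-in scalings. The Day 4 count of members below -0.6, 1 as reported, was 0 under endogenous scaling (by median or mean), median scaling and cyclic loess, 2 with a floor of 50, the value table and spike-in scaling by the mean, and 4 with spike-in scaling by the median. The Day 6 count, 3 as reported, was 1 under endogenous scaling by the median and 6 under both spike-in scalings and without normalization. The median SLR of the members moved on Day 4 to 0.27 (median) and 0.094 (mean) under endogenous and to -0.65 and -0.44 under spike-in scaling, on Day 6 to -0.35 and -0.38 and to -1.35 and -1.13, and to -1.16 without normalization, and on Day 8 to -0.54 and -0.56 under endogenous scaling. The 419 detected miRNAs then had a median of 0.35, 0.17 and 0.20 (Days 4, 6 and 8) with the endogenous median, and of -0.57, -0.83 and -0.29 with the spike-in median. Both scalings by a mean were chosen after seeing the data. Signals of miR-301b near 300 and the single array per day limit what these data show.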
